A study of Homo sapiens with 6 samples.

Results

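The comparison set V2084D shSTUB1 cells against WT cells, which asks how far accessible chromatin in cells with a mutant ARID1A and lowered STUB1 differed from that in cells with wild-type ARID1A. Both groups were Huh7, an established human hepatocellular carcinoma line, in which ARID1A had been knocked out. The V2084D shSTUB1 group then expressed Flag-tagged ARID1A V2084D from a stable lentiviral construct and had STUB1 knocked down, and the WT group expressed Flag-tagged wild-type ARID1A in the same way. Each group had 2 libraries, of 6 in the series. The groups differ in both the ARID1A form and the knockdown, so these cannot be told apart, and the labels name no control hairpin for WT. Whether each line was 1 clone or a pool, and whether replicates came from separate cultures, is not stated, so a p-value measures only the spread between libraries. The assay was ATAC-seq, which tags open DNA with a transposase, and the values are the deposited lists of peaks (build hg38), called for each library on its own.

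Members of the comparison were chosen by presence alone. Peaks of the 4 libraries on chromosomes 1 to 22 and X that overlapped by 1 bp were merged into 22121 regions, out of 28879 over all 6 libraries. A region is here called for a group when both of its libraries and neither library of the other group had a peak. V2084D shSTUB1 called 2456 regions, 11.1% of the 22121, and WT called 74, or 0.335%. Peaks were present in all 4 libraries in 3975 regions. For genes, the unit was a peak lying no more than 1000 bp from the start or the end of a protein-coding gene (a gene-end peak). Of 19970 protein-coding genes, 1412 (7.07%) were called for V2084D shSTUB1 and 27 (0.135%) for WT, while all 4 libraries had such a peak at 3737 genes and none had one at 9468.

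ARID1A is the DNA-binding subunit that defines the canonical BAF form of SWI/SNF, a complex that uses ATP to slide or evict nucleosomes and thereby keeps enhancers and many promoters open. STUB1, also called CHIP, is a ubiquitin ligase that docks on the HSP70 and HSP90 chaperones and marks misfolded client proteins for the proteasome. In liver cells SWI/SNF is known to work at enhancers together with hepatocyte and AP-1 transcription factors. Promoters of housekeeping genes tend to stay open in most cell types, whereas distal enhancers vary more between states.

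Promoter windows of the leading called genes are printed to show what kind of DNA carried the calls. They were taken by rank from genes with a start in the RefSeq promoter table (GRCh38.p14). It gives 250 bases before and 50 after the gene start, on the gene's strand. GTF3C1 and TBCCD1 ranked among these but are not printed, as they share their peaks with KATNIP and DNAJB11. Capitals mark matches, on either strand, to 13 motifs. AP-1 was searched as TGANTCA, TEAD motifs as GGAATG, the cyclic AMP response element (CRE) as TGACGTCA, the E-box as CACGTG and the CCAAT box by those letters. YY1 sites were searched as AANATGGCG, ETS sites as CCGGAAGT, SP/KLF sites as GGGCGG and the TATA box as TATAAA. FOXA sites were searched as TGTTTAC and C/EBP sites as TTGCNNCAA, and the NRF1 and ZNF143/THAP11 motifs were searched beside them. A match is a stretch of letters, not a shown binding site. The first 3 windows belong to genes called for V2084D shSTUB1 and the last 3 to genes called for WT. KATNIP lies at chr16:27549894-27550193 on the plus strand and shares most of its window with GTF3C1 on the other strand. SYS1 lies at chr20:45362906-45363205 and MRPL42 at chr12:93467264-93467563, both on the plus strand. GOLGA6A lies at chr15:74082501-74082800 on the minus strand, DNAJB11 at chr3:186570470-186570769 and ATG16L1 at chr2:233251423-233251722, both on the plus strand.
KATNIP: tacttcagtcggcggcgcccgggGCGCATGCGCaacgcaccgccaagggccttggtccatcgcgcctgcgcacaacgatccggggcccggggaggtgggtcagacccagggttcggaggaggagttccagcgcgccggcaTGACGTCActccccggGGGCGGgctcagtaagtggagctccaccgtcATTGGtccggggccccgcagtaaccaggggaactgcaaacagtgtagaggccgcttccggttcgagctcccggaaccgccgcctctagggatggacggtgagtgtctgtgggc
SYS1: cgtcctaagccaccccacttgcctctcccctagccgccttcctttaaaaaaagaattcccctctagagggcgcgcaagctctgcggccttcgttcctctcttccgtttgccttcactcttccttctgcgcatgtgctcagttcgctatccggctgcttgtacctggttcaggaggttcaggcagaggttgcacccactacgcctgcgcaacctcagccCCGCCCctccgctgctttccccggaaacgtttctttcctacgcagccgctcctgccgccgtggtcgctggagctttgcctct
MRPL42: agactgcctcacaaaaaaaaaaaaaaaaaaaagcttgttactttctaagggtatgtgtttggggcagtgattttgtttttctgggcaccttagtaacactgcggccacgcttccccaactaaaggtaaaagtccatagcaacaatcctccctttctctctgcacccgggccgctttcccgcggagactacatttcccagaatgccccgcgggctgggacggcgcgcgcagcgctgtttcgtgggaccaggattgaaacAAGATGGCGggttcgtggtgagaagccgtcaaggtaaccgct
GOLGA6A: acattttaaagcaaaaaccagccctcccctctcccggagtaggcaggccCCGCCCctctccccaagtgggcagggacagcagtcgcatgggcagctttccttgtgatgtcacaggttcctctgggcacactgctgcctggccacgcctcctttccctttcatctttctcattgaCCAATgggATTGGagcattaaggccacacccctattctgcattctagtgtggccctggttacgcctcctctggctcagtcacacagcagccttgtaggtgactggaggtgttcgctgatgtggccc
DNAJB11: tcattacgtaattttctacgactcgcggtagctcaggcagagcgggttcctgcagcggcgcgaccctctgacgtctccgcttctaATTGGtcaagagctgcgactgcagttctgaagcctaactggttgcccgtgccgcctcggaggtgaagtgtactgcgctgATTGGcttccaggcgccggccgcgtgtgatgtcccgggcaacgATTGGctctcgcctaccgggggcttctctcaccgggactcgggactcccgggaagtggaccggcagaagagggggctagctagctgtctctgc
ATG16L1: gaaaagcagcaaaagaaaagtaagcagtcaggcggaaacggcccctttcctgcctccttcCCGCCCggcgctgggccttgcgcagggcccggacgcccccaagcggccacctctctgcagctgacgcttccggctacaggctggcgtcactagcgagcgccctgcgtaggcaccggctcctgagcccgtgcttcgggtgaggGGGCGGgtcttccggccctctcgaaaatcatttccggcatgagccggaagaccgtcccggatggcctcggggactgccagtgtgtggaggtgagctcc

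The peaks of V2084D shSTUB1 replicates 1 and 2 covered 300 and 293 of the 300 bases of the KATNIP window, 294 and 300 of the SYS1 window, and 300 and 117 of the MRPL42 window. Those of WT replicates 1 and 2 covered 300 and 197 bases of the GOLGA6A window, 139 and 284 of the DNAJB11 window, and 206 and 208 of the ATG16L1 window. KATNIP held a CRE, an NRF1, a CCAAT box and an SP/KLF match, MRPL42 a YY1 match just after its start, and DNAJB11 held 3 CCAAT boxes. With 68.7% G and C in KATNIP and 51.7% in MRPL42, the V2084D shSTUB1 windows spanned a wider range than the WT windows, which had 57.3% in GOLGA6A, 62.0% in DNAJB11 and 66.7% in ATG16L1.

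The libraries differed in list length before any region was compared. V2084D shSTUB1 replicates 1 and 2 held peaks in 17154 and 12540 regions (14847 ± 3263, SD, n = 2), against 8932 and 6430 in WT replicates 1 and 2 (7681 ± 1769, SD, n = 2). The groups did not overlap, and the two-sided exact permutation p was 0.333, the smallest that 2 against 2 libraries can give. Depth, worked out from the fold and p deposited for every summit and set against the shallowest library, was 1.49 and 1.23 in V2084D shSTUB1 and 1.01 and 1 in WT. Peaks rested on few reads, with a median of 9 at the summit in each V2084D shSTUB1 library and 8 in each WT library, so a site without a peak was not shown to be closed. Depth, list length and group run together here, and their parts in the calls cannot be told apart by the counts alone. The counts also rest on each library. Without V2084D shSTUB1 replicate 1, the remaining libraries called 5500 regions and 1848 genes for V2084D shSTUB1 and 362 regions and 196 genes for WT. Without V2084D shSTUB1 replicate 2 they called 8854 regions and 2755 genes against 168 and 61. Without WT replicate 1 they called 4672 regions and 3151 genes against 778 and 99, and without WT replicate 2 3277 regions and 1993 genes against 1212 and 186. With 1 library left in a group the rule is easier to meet, so these counts are higher by construction. In a bulk library, fewer cells with an open site and a weaker signal in each cell cannot be told apart either.

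WT peaks were mostly found again in V2084D shSTUB1 cells. Of the V2084D shSTUB1 peaks, 49.7% of replicate 1 and 58.3% of replicate 2 overlapped a peak of either WT library. Of the WT peaks, 87.1% of replicate 1 and 88.5% of replicate 2 overlapped a peak of either V2084D shSTUB1 library. Between replicates, 46.0% of WT replicate 1 peaks were found in WT replicate 2, and 64.3% the other way. In V2084D shSTUB1 these shares were 55.3% and 75.8%. V2084D shSTUB1 replicates 1 and 2 held 82.1% and 71.4% of WT replicate 1 peaks, and 83.8% and 75.2% of WT replicate 2 peaks. WT peaks were thus found more often in each longer V2084D shSTUB1 list than in the other WT list. Gene counts followed the order of list length, with a gene-end peak at 9613 and 8100 genes in V2084D shSTUB1 and at 6452 and 4826 genes in WT. Gene ends made up 52.5% and 57.7% of the regions of the V2084D shSTUB1 libraries, against 61.9% and 62.8% in WT. The mean difference was -7.18 percentage points, the groups did not overlap, and the exact permutation p was again the smallest possible, 0.333.

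The list-length check kept the same number of strongest peaks, ranked by −log10 q, in every library. With 6743 peaks each, the length of the shortest list, V2084D shSTUB1 called 573 regions and WT 405, and the gene counts were 441 and 268. With 3000 peaks each the counts were 339 and 286 regions, and with 1000 each 132 and 119 regions. Of the calls made in the deposited lists, 412 of the 2456 V2084D shSTUB1 regions (16.8%) and 41 of the 74 WT regions (55.4%) still met the rule at 6743 peaks. The same held for 318 of 1412 V2084D shSTUB1 genes and 14 of 27 WT genes.

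**Figure D1:**
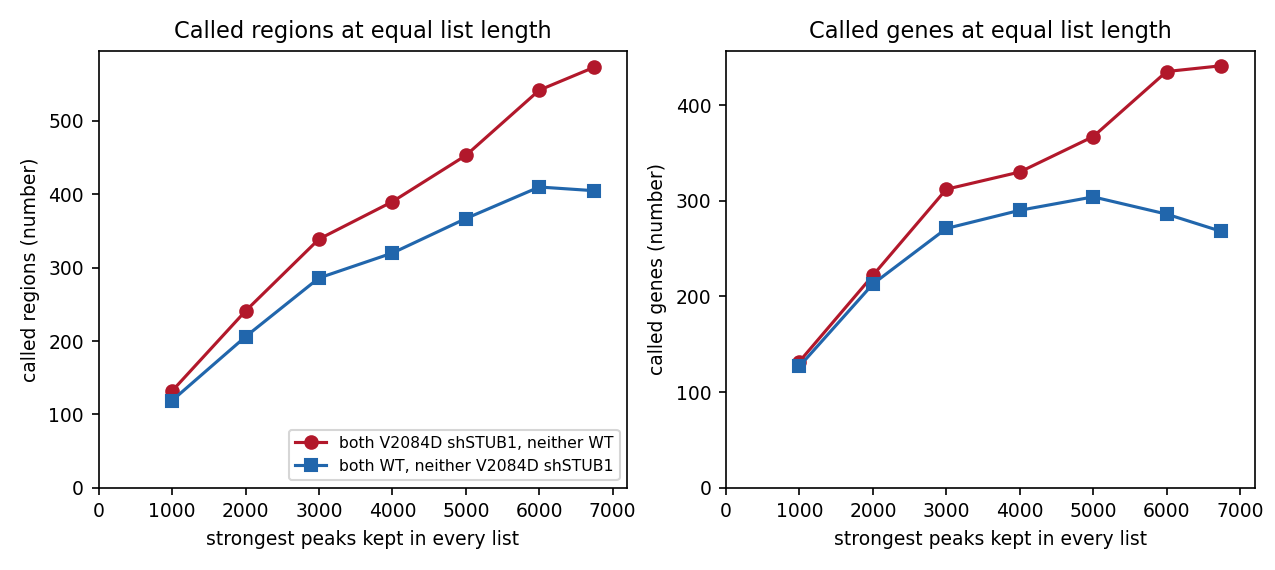
Number of called regions (left) and called genes (right) against the number of strongest peaks kept in every list, with red circles for V2084D shSTUB1 and blue squares for WT. The counts lie close together at 1000 peaks (132 against 119 regions) and further apart at 6743 peaks (573 against 405 regions).

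Equal length also changed what a WT call meant. Of the 441 genes called for V2084D shSTUB1 at equal length, 123 (27.9%) had a weaker deposited peak in at least 1 WT library. Of the 268 genes called for WT at equal length, 254 (94.8%) had a deposited peak in at least 1 V2084D shSTUB1 library that fell below the rank kept. The ranks kept reached down to a −log10 q of 5.60 and 4.35 in V2084D shSTUB1 replicates 1 and 2, and to 3.16 and 1.31 in WT replicates 1 and 2. Nearly all WT calls at equal length thus stood at genes with a deposited peak in V2084D shSTUB1 as well. Trimming to 6743 peaks cut lists of 17588 and 13196 in V2084D shSTUB1 and 9421 in WT replicate 1. It took no peak from WT replicate 2, whose list set the length. The shares of 27.9% and 94.8% therefore differ at least in part by construction and are not a comparison of the groups.

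The depth check asked whether a called peak would still have been called at the depth of the other group. When summit reads and background were scaled down to each WT library, 1652 of the 2456 V2084D shSTUB1 regions (67.3%, 95% Wilson interval 65.4 to 69.1) kept a peak past the weakest p of both WT libraries. Scaling WT peaks to the V2084D shSTUB1 libraries raises their reads, by 1.22 to 1.49 times, so nearly all must pass, and the 71 of 74 that did (95.9%) are no counterpart to that share. The interval covers counting error only. With all 4 libraries scaled to the shallowest one, V2084D shSTUB1 called 1826 regions and 1137 genes, and WT called 126 regions and 55 genes. The count was again higher for V2084D shSTUB1, with the V2084D shSTUB1 count lower and the WT count higher than in the deposited lists.

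Called regions held fewer reads than shared regions in both groups. Scaled to the shallowest library, the median summit of the V2084D shSTUB1 regions held 6.04 and 6.50 reads in replicates 1 and 2. The median summit of the WT regions held 5.92 and 7 reads. Regions shared by all 4 libraries held 10.1 and 9.74 reads in V2084D shSTUB1, against 10.9 and 9 in WT. A shared region had to have a peak in every library, which a called region did not. Over all regions with a peak in a library the medians were 6.04 and 7.31 reads in V2084D shSTUB1, against 7.89 and 8 in WT, so the called regions of V2084D shSTUB1 replicate 1 matched its median over all regions. In width, V2084D shSTUB1 regions had a median of 464 bp, WT regions 368 bp and shared regions 752 bp.

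**Figure D2:**
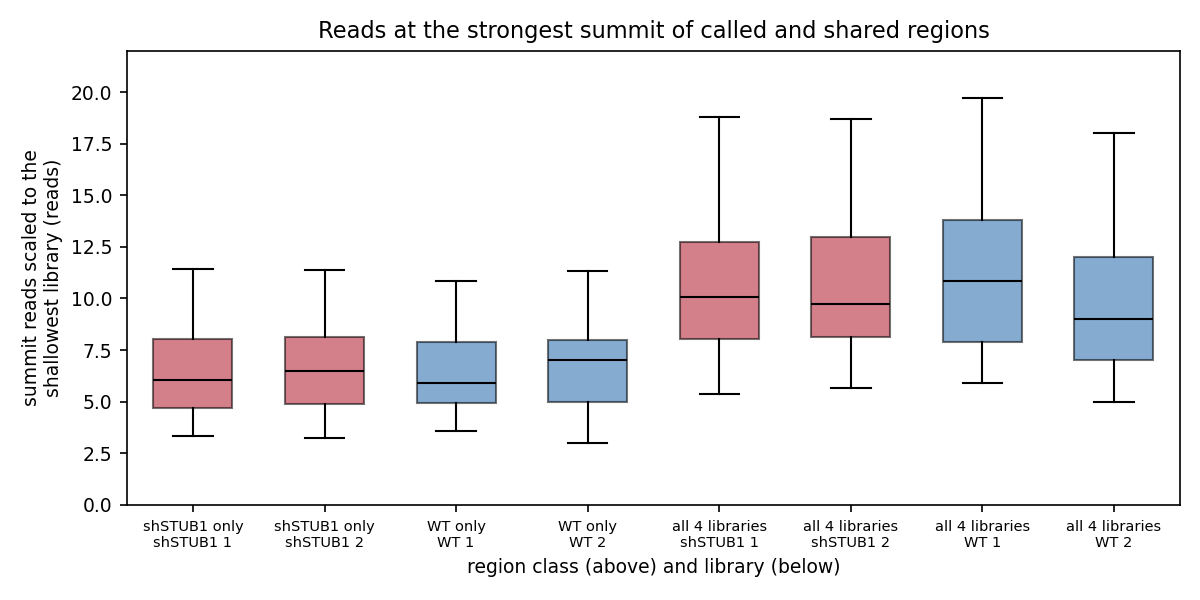
Reads at the strongest summit, scaled to the shallowest library, for regions called in V2084D shSTUB1, called in WT and present in all 4 libraries, 1 box per library (red V2084D shSTUB1, blue WT). Boxes span the quartiles with the median line, and whiskers run from the 5th to the 95th percentile of regions; the called regions of both groups have medians of 5.92 to 7 reads and shared regions 9 to 10.9.

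The leading genes called for V2084D shSTUB1 had varied known roles, and they were picked for strong peaks in both V2084D shSTUB1 libraries. They were ranked by the percentile of their −log10 q in each list, averaged over both libraries (100 is the strongest peak), among genes whose peaks in both libraries overlapped and whose call held at equal length, which 283 of the 1412 genes met. GTF3C1, the largest subunit of the TFIIIC complex that recruits RNA polymerase III, and KATNIP, a katanin-interacting protein of cilia, shared 1 peak. It held 23 and 17 summit reads in V2084D shSTUB1 replicates 1 and 2, with deposited folds over local background of 11.9 and 9.28, and no peak was called in either WT library. DLX4, a homeobox transcription factor gene, had 16 and 19 reads in V2084D shSTUB1 and no WT peak. SYS1, a Golgi membrane protein gene, had 24 and 16 reads, and its window is among those printed above. All of these peaks stood above the 90th percentile of their own lists, which the ranking favours.

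MRPL42, a subunit of the large mitochondrial ribosome, had 17 and 14 reads in V2084D shSTUB1 replicates 1 and 2, at folds of 8.91 and 9.15. SMIM13, a small integral membrane protein gene, had 17 reads in each V2084D shSTUB1 library. MED8, a subunit of Mediator, had 16 and 23 reads. HAUS4, a subunit of the augmin complex of the spindle, had 18 and 12 reads, and KIF23, a mitotic kinesin gene, 19 and 15. SEC24B, a cargo adaptor of COPII vesicles, had 21 and 11 reads. CTNNB1, which encodes beta-catenin and is often mutated in liver cancer, had 18 and 13 reads at folds of 8.19 and 8.05. By the rule of the call, none of these genes had a gene-end peak in a WT library.

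The V2084D libraries without the hairpin were outside the rule. In V2084D replicates 1 and 2, the MED8 peak held 18 and 26 reads, the CTNNB1 peak 8 and 24, and the MRPL42 peak 11 and 15. SYS1 lacked a peak in V2084D replicate 1 and held 22 reads in replicate 2. Each of the leading genes named here had a peak in V2084D replicate 2 and all but SYS1 in replicate 1.

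Of the 27 genes called for WT, 10 met the same 2 conditions. GOLGA6A had 10 and 9 summit reads in WT replicates 1 and 2, at folds of 7.33 and 6.17, but it belongs to a golgin family of near-identical copies, so the reads may come from another copy. DNAJB11, an HSP40 co-chaperone of the endoplasmic reticulum, and TBCCD1, which positions the centrosome, shared a peak of 13 and 8 reads. ATG16L1, which directs lipidation of LC3 in autophagy, had 8 reads in each WT library. The peak of 10 and 14 reads shared by NDRG4 and the lysine methyltransferase gene SETD6 lay at the start of SETD6, with summits 238 bp after and 9 bp before it, and at the far end of NDRG4. By the rule of the call, no V2084D shSTUB1 library had a gene-end peak at these genes.

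SESN3, a sestrin gene that restrains mTORC1, had 10 reads in each WT library. FIGLA, an oocyte transcription factor gene, had 4 and 6 reads, PHLPP1, a phosphatase gene acting on AKT, 9 and 8, and REEP4, which shapes the endoplasmic reticulum, 8 and 6. FIGLA lacked a peak in both V2084D libraries, whereas REEP4 held 15 and 14 reads there. The mean percentile of these 10 genes ran from 24.1 for REEP4 to 74.4 for GOLGA6A. The leading V2084D shSTUB1 genes had 91.0 for CTNNB1 to 98.0 for GTF3C1, but they head 283 qualifying genes of longer lists, so the ranges are not a comparison of the groups.

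**Figure D3:**
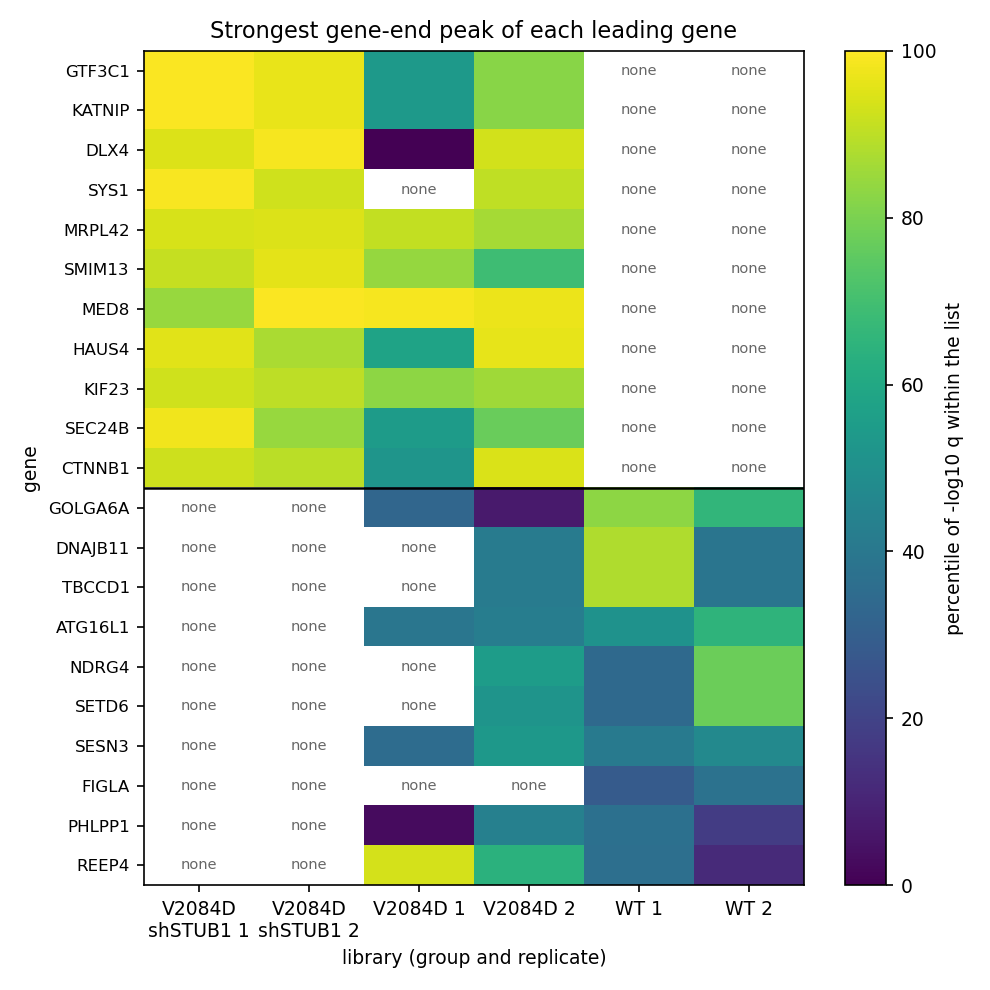
Percentile of −log10 q, within its library's list, of the strongest gene-end peak of the leading called genes (rows; V2084D shSTUB1 calls above the line, WT calls below) in each library (columns; V2084D shSTUB1, V2084D, WT). Cells marked none had no peak; the V2084D shSTUB1 calls have mean percentiles of 91.0 to 98.0 in the V2084D shSTUB1 lists, where they head 283 qualifying genes, and the WT calls, all 10 that qualified, 24.1 to 74.4 in the shorter WT lists.

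Calls lay mostly at gene starts where the start was known. Of 1135 V2084D shSTUB1 genes with a start in the promoter table, 986 (86.9%) had both summits within 1000 bp of it. The same was true of 19 of 25 WT genes (76.0%). The median distance of the summit from the start was 202 and 227 bp in V2084D shSTUB1 replicates 1 and 2, and 260 and 286 bp in WT replicates 1 and 2. The peaks of replicates 1 and 2 overlapped at 1158 of the 1412 V2084D shSTUB1 genes and at 20 of the 27 WT genes. At the rest, separate sites at the gene's ends made up the call.

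The 27 gene lists were described by counts beside the background share of 7.07% called for V2084D shSTUB1. That share is over all 19970 genes, of which 10502 (52.6%) had a gene-end peak in any of the 4 libraries. A gene without one could not be called, so lists with a peak at most members can stand above 7.07% by construction. Such a peak was present at 69 of 78 cytosolic ribosomal, 28 of 31 proteasome, 22 of 25 cholesterol synthesis and 15 of 23 YAP and TEAD target genes. Over genes with such a peak, V2084D shSTUB1 called 1412 of 10502. It called 9 of 69 cytosolic ribosomal, 4 of 28 proteasome, 4 of 29 cell cycle and 4 of 37 DNA repair genes. These counts lay near or below that share. The share was higher at 12 of 67 mitochondrial ribosomal and 6 of 22 cholesterol synthesis genes. It was also higher at 6 of 23 PI3K, AKT and mTOR and 6 of 15 YAP and TEAD target genes. Of targets of YAP and TEAD, the effectors of the Hippo pathway that drive growth genes, 6 of 23 members were called for V2084D shSTUB1 and none for WT. A gene-end peak was present at 13 and 11 of the 23 in V2084D shSTUB1 replicates 1 and 2, against 3 and 1 in WT. The V2084D shSTUB1 libraries stood above both WT libraries in 17 of the 27 lists and over all genes, so this order is not particular to the list. The Hippo kinase gene LATS2 had 8 summit reads in each V2084D shSTUB1 library, and FJX1, a four-jointed family gene, 7 and 13. At TGFB2, a TGF-beta ligand gene, they held 7 and 8 reads. The peaks at AXL, a receptor tyrosine kinase gene, lay 43295 bp apart at opposite ends of the gene, and those at CCN1 and F3 did not overlap either. None of the 6 calls held at equal length, and at CCN2, a standard YAP target, only V2084D shSTUB1 replicate 1 of the 4 libraries had a peak. Of the pathway core, 1 of 16 members was called, the LATS co-activator gene MOB1B, whose peaks lay 294 bp apart.

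PI3K, AKT and mTOR genes had 6 of 25 members called for V2084D shSTUB1 and 1, PHLPP1, for WT. Peaks were present at 19 and 16 members in V2084D shSTUB1, against 11 and 9 in WT. RPTOR, the substrate-binding subunit of mTORC1, had 10 and 8 reads in V2084D shSTUB1. Of the V2084D shSTUB1 calls in this list, only that of RPTOR held at equal length. The WT call of PHLPP1 held too. The catalytic subunit gene PIK3CB had 16 and 9 reads. The peaks of 10 and 12 reads at the kinase gene AKT2 lay 38 bp apart. The kinase genes PDPK1 and RPS6KB2 were called as well.

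Cholesterol synthesis genes also had 6 of 25 members called for V2084D shSTUB1 and none for WT. Peaks were present at 22 and 21 members in V2084D shSTUB1, against 15 and 12 in WT. IDI1, which isomerizes isopentenyl diphosphate, had 17 and 11 reads in V2084D shSTUB1, at folds of 9 and 7.32, and held at equal length. EBP, a sterol isomerase gene, had 9 and 8 reads. LSS, INSIG1 and FDFT1 were called as well. No member of the fatty acid synthesis list (20 genes) was called in either direction.

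Mitochondrial ribosomal proteins had 12 of 77 members called for V2084D shSTUB1 and none for WT. At equal length 7 of the 12 held, the highest number of any list, though this list is among the longest. Over all genes, 22.5% of the V2084D shSTUB1 calls held. Peaks were present at 62 and 55 members in V2084D shSTUB1, against 44 and 25 in WT. MRPL46 and MRPS11, a divergent pair of genes for a large and a small subunit protein, shared a peak of 18 and 12 reads in V2084D shSTUB1. Both are counted among the 7 that held. Of cytosolic ribosomal proteins, 9 of 78 were called for V2084D shSTUB1, and RPLP1 (15 and 19 reads), RPL21 (13 and 8), RPS15A (13 and 10) and RPL30 held at equal length. Proteasome subunits had 4 of 31 called, led by the ubiquitin receptor gene PSMD4 with 14 and 15 reads. Among genes with a gene-end peak in any of the 4 libraries, the cytosolic ribosomal and proteasome lists lay near the share over all such genes.

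Of 28 SWI/SNF subunit genes 1 (3.57%) was called, SMARCD2 for V2084D shSTUB1, with 13 and 14 reads. It encodes a BAF core subunit. A gene-end peak was present at 17 and 12 SWI/SNF genes in V2084D shSTUB1, against 9 and 9 in WT. Of 40 chaperone and STUB1 partner genes, BAG5, an HSP70 cofactor gene, was called with 11 and 9 reads, whereas 18 of the 40 had one in all 4 libraries. The unfolded protein response had 2 of 28 genes called for V2084D shSTUB1 (7.14%), ASNS and, on peaks 710 bp apart, ATF6. It had 1, DNAJB11, called for WT (3.57%, beside 0.135% over all genes). That share rests on 1 gene, whose peak is shared with TBCCD1. The oxidative stress (NRF2) list had no member of 22 called.

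Other signalling lists gave small counts. In the TGF-beta list 3 of 20 genes were called for V2084D shSTUB1, among them the receptor gene TGFBR2, with 9 and 6 reads, and TGFB2. The signal transducer gene SMAD2 was called for WT, with 8 reads in each library. The cell cycle list had 4 of 36 called for V2084D shSTUB1, led by the CDK inhibitor gene CDKN1B (14 and 11 reads), DNA damage and repair 4 of 39, and Wnt 2 of 26, CTNNB1 and, beyond its far end, DVL3. Of p53 targets 1 of 24, TNFRSF10B with peaks 49535 bp apart, of AP-1 factors 1 of 17, MAFF, of interferon response genes 1 of 27, IFIT5, and of epithelial and mesenchymal genes 1 of 24, VIM, were called for V2084D shSTUB1.

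**Figure D4:**
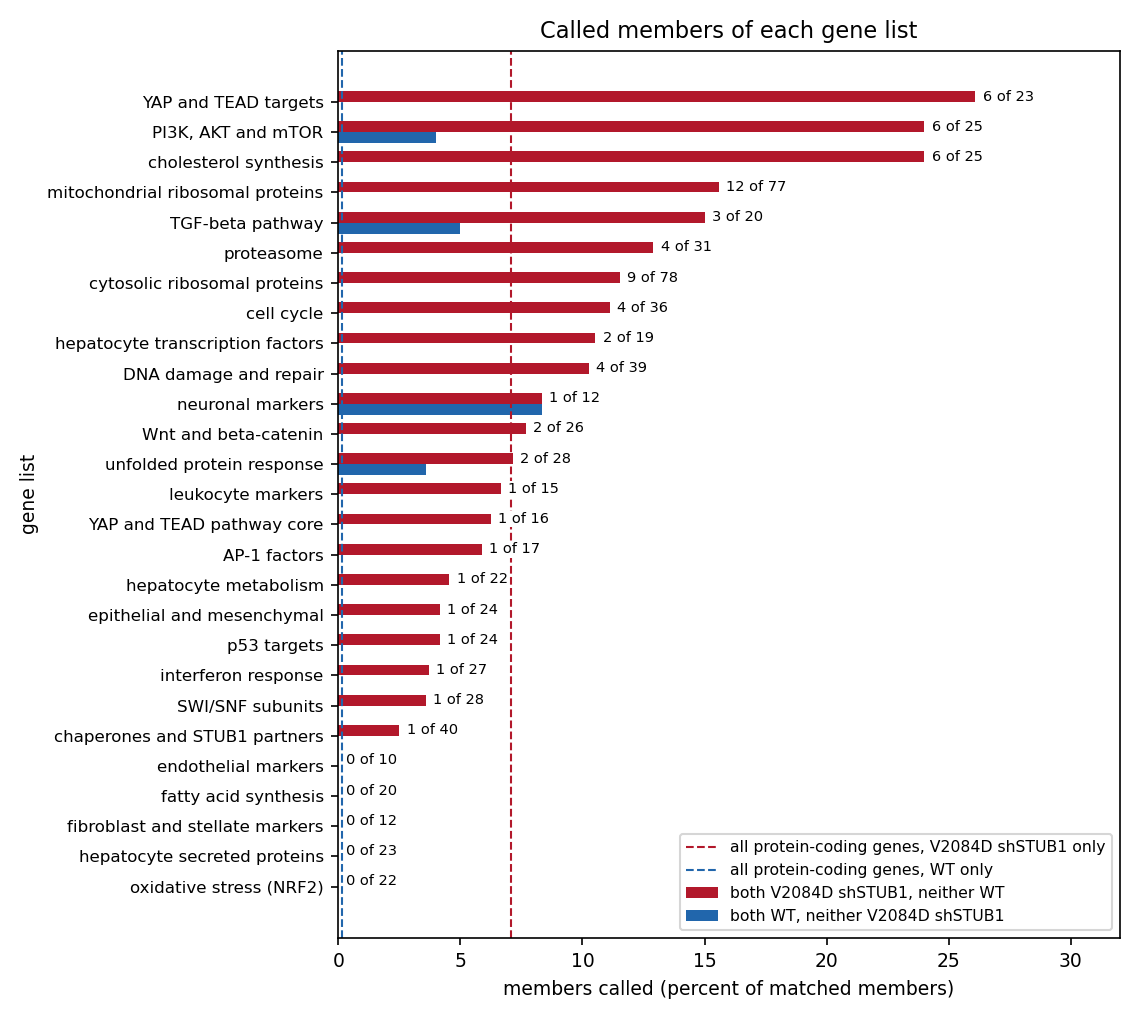
Percent of the members of each of 27 gene lists called for V2084D shSTUB1 (red) or WT (blue), with the number called for V2084D shSTUB1 written at the bar and dashed lines at the share over all protein-coding genes (7.07% and 0.135%). YAP and TEAD targets, PI3K, AKT and mTOR, and cholesterol synthesis stand highest, at 6 of 23, 6 of 25 and 6 of 25. The dashed lines include genes without a peak in any of the 4 libraries, which could not be called.

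Liver identity genes had few peaks in any library. Of 21 hepatocyte markers, 16, among them ALB, AFP, APOB, HNF4A and FOXA1, had no peak at the ends or within the body of the gene in any of the 4 libraries. The libraries had a gene-end peak at 4 and 3 of the 21 in V2084D shSTUB1, and at 2 and 2 in WT. The line's cell type could therefore not be checked from these lists. Of hepatocyte transcription factors, CEBPD and HNF4G were called for V2084D shSTUB1 (2 of 19), and of hepatocyte metabolism genes CPS1, of the urea cycle, just before the first base of its span (1 of 22). No hepatocyte secreted protein gene of 23 was called.

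Markers of other cell types were also sparse. Of 7 leukocyte markers, 2 and 1 had a gene-end peak in V2084D shSTUB1 and none in WT. The myeloid transcription factor gene SPI1 was the called one, with 12 and 9 reads, while PTPRC, CD3E and CD14 had no peak in any of the 4 libraries. The SPI1 peaks lay just after the first base of its span. Its start is not in the promoter table, so they were not shown to lie at its promoter. Of 6 endothelial markers, 1 and 1 had a peak in V2084D shSTUB1, against 1 and 0 in WT. Of 8 fibroblast and stellate markers, each library had 1, COL1A1. Of 5 neuronal markers, 1 and 1 had a peak in V2084D shSTUB1, against 2 and 1 in WT. In the longer neuronal list, NEFL was called for V2084D shSTUB1 and GAP43 for WT, both on peaks that did not overlap between libraries. The part of other cell types in the calls was not tested.

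The engineered genes gave no check of the labels. ARID1A had no peak in V2084D shSTUB1 replicate 1 and 1 peak in replicate 2, against 1 in each WT library, at 3 different positions. STUB1 had no peak in any library. A peak at either gene does not report on a knockout or on the RNA that a hairpin lowers.

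Beyond gene ends, V2084D shSTUB1 called 1163 regions and WT 47. Gene ends held 52.6% of the V2084D shSTUB1 regions, 36.5% of the WT regions and 74.3% of the shared regions. A further 23.2% of the V2084D shSTUB1 regions lay inside a gene away from its ends and 24.1% between genes, against 28.4% and 35.1% of the WT regions. The median distal region lay 22921 bp from the nearest gene end for V2084D shSTUB1, 39364 bp for WT and 16776 bp for shared regions. With windows of 200 bp at summits the gene-end shares were 55.5% and 62.4%, so their order turned round. It also did without V2084D shSTUB1 replicate 1 (44.3% and 50.3%) and without replicate 2 (39.7% and 41.7%). Over 50 kb from any gene end were 356 V2084D shSTUB1 regions (30.6% of the distal ones) and 21 WT regions. The start of a noncoding gene lay within 1000 bp of 104 V2084D shSTUB1 (8.94%) and 3 WT (6.38%) distal regions. The share was 7.67% over all distal regions and 16.9% over the shared ones.

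Of the distal calls, 141 for V2084D shSTUB1 and 27 for WT held at equal length. The strongest for V2084D shSTUB1 was chr19:48400129-48400691, inside GRIN2D, an NMDA receptor subunit gene, with 30 and 20 summit reads. Next came chr16:2501312-2501828 inside TBC1D24, a Rab-GAP-like gene of vesicle traffic, with 19 and 14 reads, and chr11:20112309-20112929 inside NAV2, a neuron navigator gene, with 17 and 12. A region 1541 bp from SPRY2, a feedback inhibitor of receptor tyrosine kinases, at chr13:80342667-80343156, held 24 and 22 reads. By the rule, WT libraries had no peak at any of these.

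A region inside LTBP4, which binds latent TGF-beta, at chr19:40598373-40598817, held 19 and 17 reads in V2084D shSTUB1. Regions inside CIMAP3 (chr1:111346152-111346728, 13 and 14 reads) and CACNG2 (chr22:36659797-36660319, 12 and 17), and one 8255 bp from NBPF15 (chr1:144412621-144413135, 14 and 19), followed. NBPF15 belongs to a family of near-identical copies. The widest, of 928, 883 and 855 bp, lay inside DOCK3, FRMD6 and NOTCH2NLB. The last 2 of these were made of peaks that overlapped by little between the libraries, and NOTCH2NLB has near-identical copies.

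The leading distal WT calls came from fewer candidates and shallower libraries, so their reads are not set against those above. The first was chr10:71860445-71860762, 9194 bp from PSAP, which encodes the precursor of the saposins of the lysosome, with 11 and 7 reads in WT replicates 1 and 2. The next lay inside ASPH (9 and 7 reads), 11828 bp from OSBPL6 (9 and 9), 23223 bp from PTGER2, a prostaglandin receptor gene (9 and 10), and 13962 bp from TMEM67, a ciliary gene (11 and 8). Regions 347676 bp from GYPC, 77010 bp from DCAF12L1 and inside ALCAM completed them. The DCAF12L1 region held 6 and 16 reads and was the widest, at 610 bp.

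The 2 V2084D libraries without the hairpin, which the rule did not use, had peaks in most of the regions called for either group when the longer list was asked. Of the V2084D shSTUB1 regions, 32.6% had a peak in V2084D replicate 1, 87.1% in replicate 2 and 11.4% in neither. Of the WT regions, 24.3% had a peak in V2084D replicate 1, 71.6% in replicate 2 and 25.7% in neither. Of the shared regions, 80.7% and 99.6% did. Of all 22121 regions, 33.4% had a peak in V2084D replicate 1, 71.8% in replicate 2 and 27.0% in neither. The WT regions lay near these shares in replicate 2 and in neither, and the V2084D shSTUB1 regions in replicate 1. V2084D replicates 1 and 2 held 8428 and 22978 peaks, so the share found moved with the length of the list. By genes, V2084D replicates 1 and 2 had a peak at 622 and 1342 of the 1412 V2084D shSTUB1 genes. At the 27 WT genes they had one at 7 and 22. Over all 19970 genes the shares were 31.1% and 54.7%, and over genes with a peak in all 4 libraries 84.6% and 99.9%.

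Promoter windows of V2084D shSTUB1 genes held fewer CCAAT boxes than those of shared genes. Of the 993 V2084D shSTUB1 promoter windows, 32.8% held a CCAAT box, against 11 of the 22 WT windows, 51.6% of the 2355 windows of genes with a peak in all 4 libraries, and 36.3% of all 15812 windows. An ETS match stood in 8.76% of the V2084D shSTUB1 windows, 9.09% of the WT windows, 12.8% of the shared windows and 6.2% of all. In both motifs the V2084D shSTUB1 windows lay nearer to genes with a peak in 1 library only (33.0% and 7.6%) than to shared genes. Genes with a peak in both V2084D shSTUB1 libraries and 1 WT library lay between, with 37.3% for the CCAAT box, but at 13.3% for ETS they were close to shared genes.

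The other motifs gave no single order. SP/KLF matches stood in 74.7% of the V2084D shSTUB1, 77.3% of the WT and 75.9% of the shared windows, against 43.4% of the 8302 windows of genes without a peak. A TATA box stood in 5.44% of the V2084D shSTUB1 windows, none of the 22 WT windows, 2.93% of the shared, 14.4% of the windows without a peak and 9.64% of all windows. The AP-1 motif was present in 4.13%, 9.09% (2 windows), 2.80%, 8.03% and 5.76% in the same order, and TEAD in 10.4%, 13.6%, 9.98%, 13.4% and 11.7%. YY1 matches stood in 8.96% of the V2084D shSTUB1 and none of the WT windows, against 9.21% of shared windows, 1.60% of windows without a peak and 4.82% of all. The median share of G and C was 66.7% in V2084D shSTUB1, 66.8% in WT, 64.7% in shared and 62.7% in all windows. Windows of neighbouring genes can overlap, and these shares carry no test.

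By chromosome, the share of regions called for V2084D shSTUB1 ran from 6.38% on chromosome 18 to 14.2% on chromosome 16, with 14.1% on chromosomes 6 and 22. Local background, the reads expected around a shared region, was compared as a median per chromosome relative to the library's median over all shared regions. On chromosome 6 it was 0.94 and 0.90 in V2084D shSTUB1, 0.88 and 0.90 in V2084D, and 0.76 and 0.78 in WT. On chromosome 1 it was 1.23 and 1.24 in V2084D shSTUB1, 1.24 and 1.2 in V2084D, and 1.10 and 1.11 in WT. It was lower on chromosome 17, with 1 and 0.96 in V2084D shSTUB1, 1.07 and 1 in V2084D, and 1.10 and 1.08 in WT. These 3 chromosomes were chosen after their values were seen. The groups did not overlap on 12 of the 23 chromosomes, with V2084D shSTUB1 above WT on 4 and below it on 8.

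Background and called share were set side by side over whole chromosomes. Over 23 chromosomes, the ratio of V2084D shSTUB1 to WT background and the called share had a Pearson r of 0.56 and a Spearman rho of 0.48, and r was 0.48 and rho 0.42 without chromosome 6. These points share the same libraries and differ in size and gene density, so they are a description. The ratio was highest on chromosome 6, at 1.2, and lowest on chromosome 17, at 0.90. Along chromosome 6 the called share was 17.4% from 20 to 40 Mb, the highest of 9 bins, and 8.93% from 80 to 100 Mb, the lowest. Relative background ran the other way in these bins. From 20 to 40 Mb it was 0.60 and 0.63 in V2084D shSTUB1, against 0.68 and 0.59 in WT, so the groups overlapped. From 80 to 100 Mb it was 0.95 and 1.04 in V2084D shSTUB1, against 0.76 and 0.73 in WT. Chromosome 6 held 5.64% and 5.56% of the regions of V2084D shSTUB1, against 4.41% and 4.07% in WT. The part of local background in the calls was not tested.

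**Figure D5:**
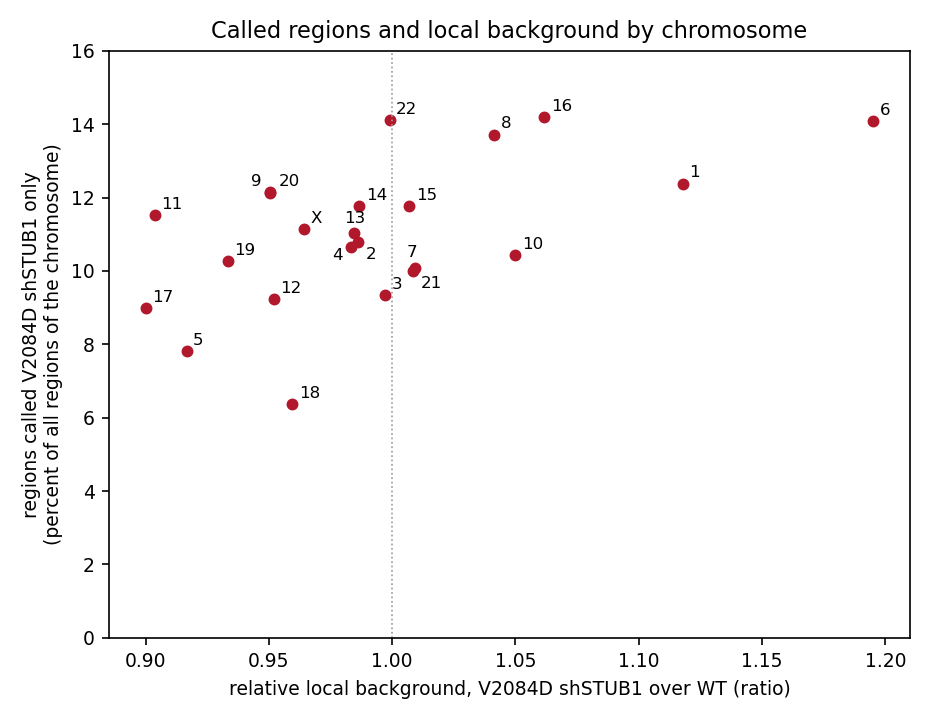
Percent of a chromosome's regions called for V2084D shSTUB1 (vertical axis) against the ratio of relative local background, V2084D shSTUB1 over WT (horizontal axis), 1 point per chromosome; the dotted line marks equal background. Chromosome 6 stands furthest right, at 1.2 and 14.1%, and chromosomes 5 and 17 lie at the lower left.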

How the data were processed

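ATAC-seq was made on 6 libraries of ARID1A-knockout Huh7 cells, grouped by their titles; the 4 of V2084D shSTUB1 and WT were compared and the 2 of V2084D served as libraries outside the rule. The submitters' processing notes list deepTools, bedtools, MACS2, Trimmomatic, Picard, SAMtools and Bowtie2, with no roles, and the build hg38. Tool versions and settings, and whether reads were shifted to the Tn5 cut site, are not stated. The authors deposited a separate peak list for every library, not 1 over pooled libraries. Each deposited peak carries the authors' fold over local background (a linear ratio), −log10 p and −log10 q, the position of its summit, and a score that is the whole part of 10 times the −log10 q. The lowest deposited −log10 q was 1.30 to 1.31, and 2.07% to 2.60% of summits lay off chromosomes 1 to 22 and X and were left out.

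From these, with Python 3.11.15, pandas 2.3.3, numpy 2.4.6 and scipy 1.17.1, whole summit reads and background were recovered from fold and p under MACS2's Poisson model, to 0.001 in −log10 p, for 100% of summits. The lowest background of a library gave its relative depth. Genes were the 19970 protein-coding genes of the RefSeq table (GRCh38.p14), with starts for 15812 from the promoter table. Exons and introns were not told apart. Of 741 list entries, 2 did not match. Named genes were, for each direction, the 12 with the highest mean percentile among those with overlapping peaks and a call that held at equal length, up to 3 called members of each list, ARID1A, STUB1, and the 8 leading and 3 widest distal regions; further called list members and markers were chosen after their values were seen. Some genes that qualified are left out of the text and the plots. The members and the lists were chosen with earlier results of these data known. Calls have no test, since regions and genes are not replicates; list length and gene-end share per library were compared by exact permutation. The computation was tested on simulated data. Alternatives were lists of equal length, scaled depth, a stricter q, other overlaps and windows, and each library left out.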

Additional observations from a re-analysis of the deposited data

How the results depend on the processing

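The V2084D shSTUB1 count of regions and of genes was above the WT count in every alternative run, but the WT counts and the shares at gene ends moved with most of them. Values are given as V2084D shSTUB1 and then WT, beside 2456 and 74 regions, 1412 and 27 genes, and gene-end shares of 52.6% and 36.5% in the deposited lists. At equal list length there were 573 and 405 regions, 441 and 268 genes, and shares of 66.1% and 56.0%. With 3371 peaks in every list, a length chosen after seeing the data, there were 356 and 304 regions, 334 and 285 genes, and shares of 77.0% and 71.7%. A −log10 q of at least 5 gave 1462 and 46 regions, 1220 and 34 genes, and shares of 68.9% and 65.2%. Scaled depth gave 126 WT regions, 55 WT genes and a V2084D shSTUB1 share of 56.1%. Windows of 200 bp at summits gave 346 WT regions and shares of 55.5% and 62.4%, so that the order of the shares turned round. The V2084D shSTUB1 share was 59.4% where a peak had to cover 50% of a region, and 49.1% and 55.8% with gene-end windows of 500 and 2000 bp.

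Leaving out each library in turn gave 3277 to 8854 V2084D shSTUB1 and 168 to 1212 WT regions, 1848 to 3151 V2084D shSTUB1 and 61 to 196 WT genes, and shares of 39.7% to 58.8% and 26.3% to 50.3%. The highest V2084D shSTUB1 region count came without V2084D shSTUB1 replicate 2 and the highest WT count without WT replicate 2; a group of 1 library needs 1 peak, by construction. Without V2084D shSTUB1 replicate 1, and without replicate 2, the share at gene ends was lower in V2084D shSTUB1 regions (44.3% and 39.7%) than in WT regions (50.3% and 41.7%). With the replicate number as a block, the differences of 7166 regions and -7.18 percentage points per library were the same and the exact permutation p was 0.5, the smallest that 2 pairs can give; nothing in the labels says that a number marks a shared batch. Gene counts were not run with 50% of a region covered, since genes use no merged regions. The cause of these changes was not tested.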

Other observations

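Noncoding genes gave a small further set. Of 1562 miRNA hairpins in the RefSeq table, 16 lay within 1000 bp of a region called for V2084D shSTUB1, which overlapped 4 of them, and 1, MIR4485, within that distance of a region called for WT. MIR4707 lay under the peak at the start of HAUS4. MIR3917 lay under that at STMN1, a microtubule regulator gene. MIR1292 lay beside the peak at NOP56, a box C/D snoRNP gene, and with MIR3180-3 and MIR4707 it was near a region whose call held at equal length. MIR3180-3 has near-identical copies elsewhere in the genome.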
